A study of Mus musculus with 4 samples.

Results

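The MS4A genes and the Tmem176 pair encode small membrane proteins of one family, and they were compared in thymocytes with and without an induced deletion of Ikaros. The 8 genes are Ms4a4b, Ms4a4c, Ms4a6b, Ms4a6c, Ms4a6d, Ms4a1, Tmem176a and Tmem176b, of 19938 genes that the arrays measured by a probe set with exactly 1 gene symbol. Each of the 8 genes had 1 such probe set. They were chosen by family and with their values known: in Cre+ mice Ms4a4b and Ms4a6b were lower and Tmem176a and Tmem176b were higher. Their differences between the groups are therefore given as a description, without a test.

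The cells were DN4 thymocytes, immature T cells that express neither CD4 nor CD8 at the surface, sorted from animals whose Ikzf1 gene, which encodes the transcription factor Ikaros, was flanked by loxP sites. Cre+ mice (mice 129 and 135, genotype Ikf/f Rosa26-CreERT2+) carried a tamoxifen-dependent Cre recombinase at the broadly expressed Rosa26 locus. Cre- mice (mice 131 and 137, genotype Ikf/f) carried the floxed alleles alone. All 4 mice received tamoxifen intraperitoneally at 50 mg/kg daily for 4 days, and cells were taken 24 h after the final dose. The treatment text of all 4 samples names the CreERT2+ genotype, so the Cre status is taken from the titles and the series' design text. Loss of the Ikaros protein in the sorted Cre+ cells was seen by western blot, per the series' design text. Only Cre+ mice held the recombinase, so its own action and the loss of Ikaros cannot be told apart. The labels consulted name neither the age nor the strain of the mice.

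Each mouse gave 1 array of total RNA, and values are RMA expression levels on the log2 scale, where a difference of 1 is a 2-fold change. The lower quartile of all values on an array lay between 5.39 and 5.42 and the median between 6.85 and 6.88. With 2 arrays a group, precision is limited by their number throughout. Ikzf1 itself was at 12.06 and 11.99 in Cre+ mice, against 12.07 and 12.11 in Cre- mice, and where its probes lie relative to the floxed part was not analysed here. The T lineage genes Thy1 and Cd3e were at 12.84 or above on all 4 arrays. Il2ra, whose product CD25 has left the surface by the DN4 stage, was between 10.71 and 11.58, and Cd44 was between 5.90 and 6.40. Cd4 was between 7.26 and 7.94, Cd8a between 8.07 and 9.12, and Cd8b1 between 11.50 and 11.91. In bulk RNA, fewer cells of a type and less RNA per cell cannot be told apart.

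MS4A proteins span the membrane 4 times with both ends in the cytoplasm, and several associate with immune receptors. The founding member is CD20, the B cell antigen encoded by Ms4a1, and Ms4a2 encodes the beta chain of the high-affinity IgE receptor. Ms4a4b is known from T cells, where its product associates with the costimulatory receptor GITR, and Ms4a6d and other members are known from macrophages. Tmem176a and Tmem176b encode CD20-like proteins of intracellular vesicles that are abundant in dendritic cells, and Tmem176b acts as a cation channel in dendritic cells.

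The 2 branches lie on different chromosomes. In the RefSeq table (GRCm38.p6), all 6 MS4A members lie in 1 cluster on chromosome 19, which holds 32 annotated genes from Ms4a10 to Ms4a3. Tmem176a and Tmem176b are direct neighbours on chromosome 6, beside the GIMAP genes. RefSeq promoter windows, 250 bases before to 50 bases after a gene's start, were at hand for 6 of the 8 genes, with 9 windows in all. Ms4a6d and Ms4a1 were without an entry.

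The sequences of 4 MS4A genes are shown because Ms4a4b and Ms4a6b, the MS4A genes named in the choice of members, each have a close relative in the cluster with a smaller difference. Each is the 250 bases before the start on the + strand of chromosome 19 in GRCm38.p6, at chr19:11443308-11443557, chr19:11407411-11407660, chr19:11518309-11518558 and chr19:11469118-11469367. Capitals mark GGGAA, the core that Ikaros recognises, or its reverse complement TTCCC.
Ms4a4b: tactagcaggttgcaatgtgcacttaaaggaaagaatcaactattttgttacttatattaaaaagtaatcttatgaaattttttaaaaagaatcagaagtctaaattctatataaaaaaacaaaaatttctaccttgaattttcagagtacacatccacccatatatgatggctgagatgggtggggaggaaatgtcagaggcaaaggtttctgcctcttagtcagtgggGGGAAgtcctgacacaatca
Ms4a4c: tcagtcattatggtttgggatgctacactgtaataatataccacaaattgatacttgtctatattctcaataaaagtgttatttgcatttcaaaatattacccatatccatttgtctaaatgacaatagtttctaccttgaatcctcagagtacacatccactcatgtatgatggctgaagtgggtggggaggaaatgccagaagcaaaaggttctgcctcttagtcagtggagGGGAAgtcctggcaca
Ms4a6b: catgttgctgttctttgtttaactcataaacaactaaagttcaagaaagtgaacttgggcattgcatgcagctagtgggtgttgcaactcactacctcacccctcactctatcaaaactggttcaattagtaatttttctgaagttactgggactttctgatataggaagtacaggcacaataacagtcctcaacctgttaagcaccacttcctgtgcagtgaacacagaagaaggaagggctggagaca
Ms4a6c: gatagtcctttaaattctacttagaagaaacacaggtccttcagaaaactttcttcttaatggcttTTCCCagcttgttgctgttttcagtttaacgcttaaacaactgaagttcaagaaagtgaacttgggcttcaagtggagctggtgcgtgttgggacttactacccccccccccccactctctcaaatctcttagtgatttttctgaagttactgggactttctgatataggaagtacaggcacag

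Upstream sequence was shared within the 2 subfamilies. Ms4a4b and Ms4a4c aligned locally over 251 columns with 73.3% identity, and both carry a GGGAA on the gene's strand just before the start. Ms4a6b and Ms4a6c aligned over 182 columns with 83.5% identity. The best local alignments between the subfamilies were shorter, at 15 to 119 columns.

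The Tmem176 pair is shown by the stretch between its starts. The nearest annotated starts of Tmem176b on the - strand and of Tmem176a on the + strand are separated by 108 bases, and their promoter windows overlap by 208 bases. The stretch is chr6:48841375-48841482 in GRCm38.p6, on the + strand, with the TTCCC in capitals.
Tmem176a and Tmem176b: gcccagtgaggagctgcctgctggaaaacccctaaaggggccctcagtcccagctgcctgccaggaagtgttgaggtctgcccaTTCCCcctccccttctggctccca

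The same 108 bases thus lie before both genes. RefSeq lists 2 starts for Tmem176a and 3 for Tmem176b, on opposite strands. Every listed start of Tmem176b lies at a lower position than those of Tmem176a, so the genes point away from each other. Where the array's probes lie in the 2 genes was not analysed here, so signal shared between the pair was not tested.

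Of the 9 member windows, 6 held GGGAA or its reverse complement, as did 62.7% of all 32851 promoter windows. The ETS motif AGGAAGT, searched on both strands, was in 5 of the 9 windows and in 9.35% of all windows. It overlaps no GGGAA in these windows. The overlapping windows of Tmem176a starts 1 and 2 and Tmem176b start 2 hold the same single match. The other windows with it are those of Ms4a6b and Ms4a6c, whose upstream sequences are alike. GGGAA matches also recur across the overlapping Tmem176 windows, so the windows are not independent. These counts describe the letters in the windows.

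**Figure D1:**
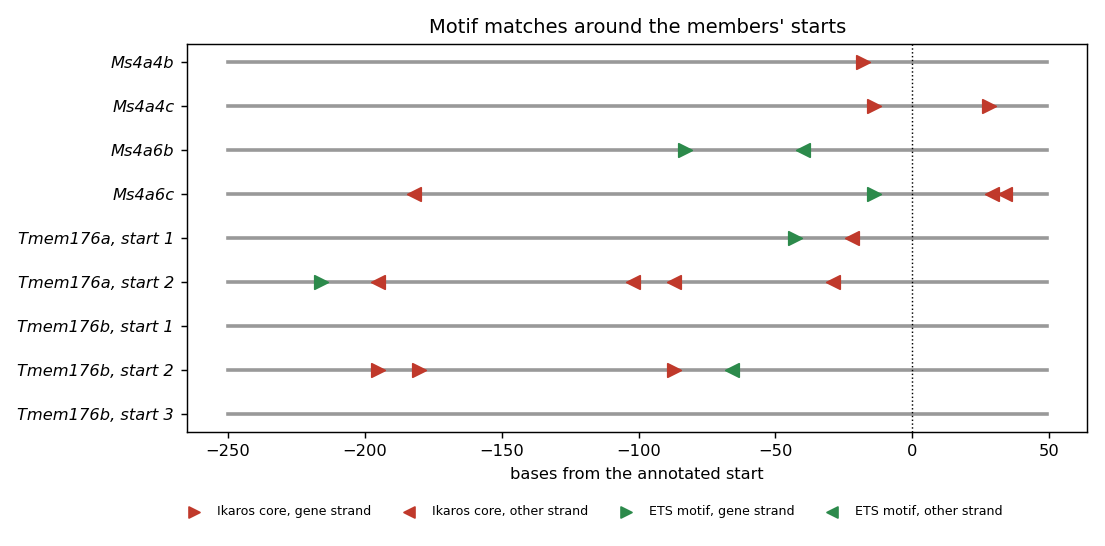
Matches of GGGAA (Ikaros core, red) and AGGAAGT (ETS motif, green) in the 9 promoter windows of 6 genes, by distance in bases from the annotated start; arrowheads give the strand relative to the gene. Ms4a4b and Ms4a4c each have a red match within 20 bases before the start, and Ms4a6b has 2 green matches and no red one.

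Tmem176a and Tmem176b had the largest differences of the 8 genes, and both were higher in Cre+ cells. Tmem176b was at 10.49 and 10.28 in Cre+ mice, against 9.04 and 8.97 in Cre- mice. Tmem176a was at 9.28 and 9.11 in Cre+ mice, against 7.81 and 7.76 in Cre- mice. For both genes the 2 Cre+ arrays lay well above the 2 Cre- arrays, with no overlap.

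The differences of the pair were nearly equal. Tmem176a averaged 9.20 ± 0.12 in Cre+ mice and 7.78 ± 0.03 in Cre- mice (SD, n = 2 each), a difference of 1.41 on the log2 scale (limma SE 0.10, 2.66-fold). Tmem176b averaged 10.38 ± 0.15 in Cre+ mice and 9.01 ± 0.05 in Cre- mice, a difference of 1.38 (SE 0.10, 2.59-fold). Of 19938 genes, 23 had a larger positive difference than Tmem176a and 25 a larger one than Tmem176b. Over the 4 possible pairs of 1 Cre+ and 1 Cre- mouse, the difference of Tmem176a ranged between 1.31 and 1.52 and that of Tmem176b between 1.23 and 1.52. Mouse 129 was the higher of the 2 Cre+ mice for both genes, by 0.17 and 0.21.

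Of the 6 MS4A members, Ms4a4b had the most negative difference. It was at 5.52 and 5.39 in Cre+ mice, against 6.02 and 6.02 in Cre- mice. The Cre- arrays were almost equal and both Cre+ arrays lay below them, close to the lower quartile of their arrays. Ms4a4b was lower by 0.56 in Cre+ cells (log2 difference -0.56, SE 0.09, 1.48-fold). Of all genes, 49 had a more negative difference.

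Ms4a4c, the neighbour with the similar upstream sequence, was at 4.49 and 4.53 in Cre+ mice, against 4.63 and 4.77 in Cre- mice. These values lay below the lower quartile on all 4 arrays, and the groups did not overlap. The log2 difference was -0.19 (SE 0.08). How far paralogous transcripts share probes was not analysed here, so the values of Ms4a4b and Ms4a4c, and those of Ms4a6b, Ms4a6c and Ms4a6d, are uncertain to that extent.

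Ms4a6b lay in the upper part of the range and was lower in Cre+ cells by less. It was at 10.50 and 10.35 in Cre+ mice, against 10.65 and 10.76 in Cre- mice. The groups did not overlap, and the smallest gap between a Cre+ and a Cre- mouse was 0.15, about as wide as the 0.15 between the 2 Cre+ mice. The log2 difference was -0.28 (SE 0.08, 1.22-fold), and 316 genes had a more negative one.

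Ms4a6c, the close relative of Ms4a6b, was at 6.35 and 6.24 in Cre+ mice, against 6.43 and 6.34 in Cre- mice. Its groups overlapped, and the log2 difference of -0.09 (SE 0.10) was smaller than its SE. Ms4a6c is also known as a chemoreceptor gene of olfactory neurons. Ms4a6d was at 5.54 and 5.46 in Cre+ mice, against 5.71 and 5.64 in Cre- mice. Its groups did not overlap, and the log2 difference was -0.18 (SE 0.09).

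Ms4a1, the CD20 gene, varied more between mice than between groups. It was at 4.76 and 5.13 in Cre+ mice, against 4.95 and 5.77 in Cre- mice, with 3 of the 4 values below the lower quartile of their arrays. The 2 Cre- mice differed by 0.82, and only mouse 137 stood above the quartile. The log2 difference was -0.42 (SE 0.29). Without mouse 137 it was -0.01, and without mouse 131 it was -0.83.

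**Figure D2:**
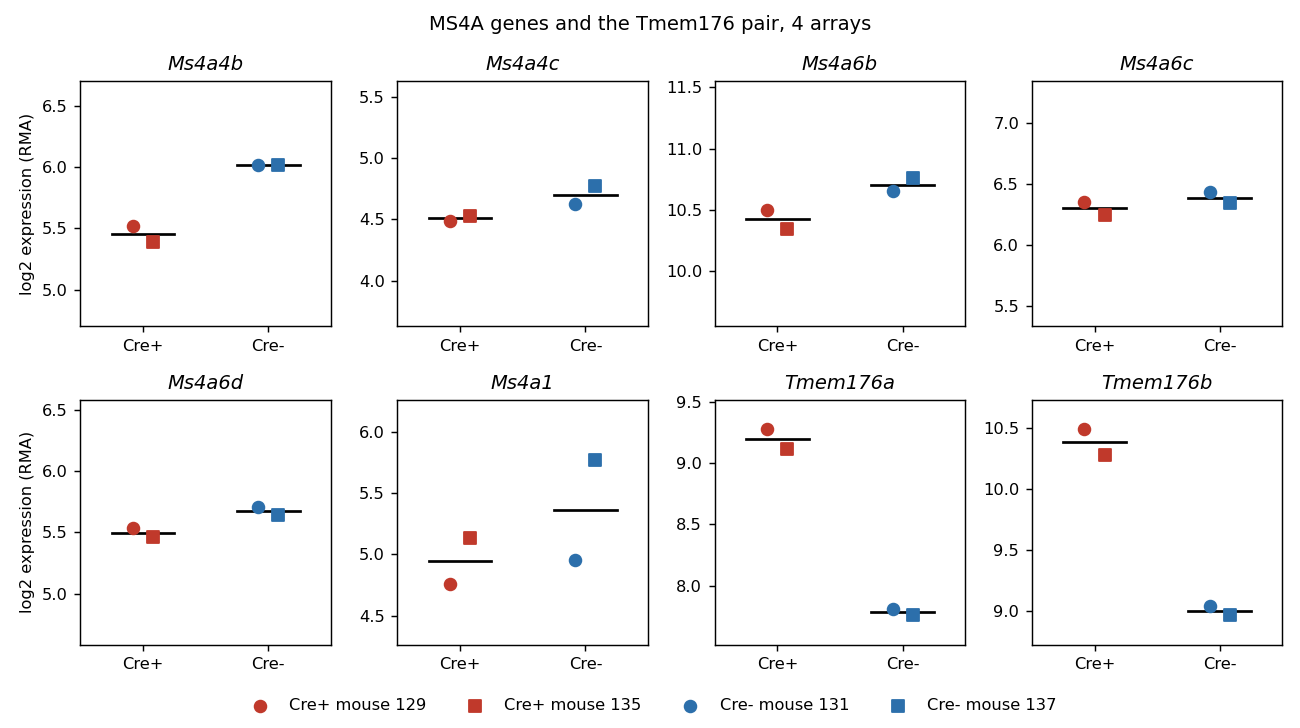
RMA log2 expression of the 8 genes on the 4 arrays, Cre+ mice in red and Cre- mice in blue, with a line at each group's mean; every panel spans 2 log2 units. Tmem176a and Tmem176b are separated by over 1 log2 unit, Ms4a4b by about 0.56 between means, and Ms4a1 is set apart by mouse 137.

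All 6 MS4A members thus had lower means in Cre+ cells, and 4 of them had groups that did not overlap. Over all genes 20.3% were lower without overlap and 16.1% were higher without overlap. Since these members were chosen with this contrast known, nothing is read from the count. The median difference over all genes was -0.01 and their median SD within groups was 0.07.

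**Figure D3:**
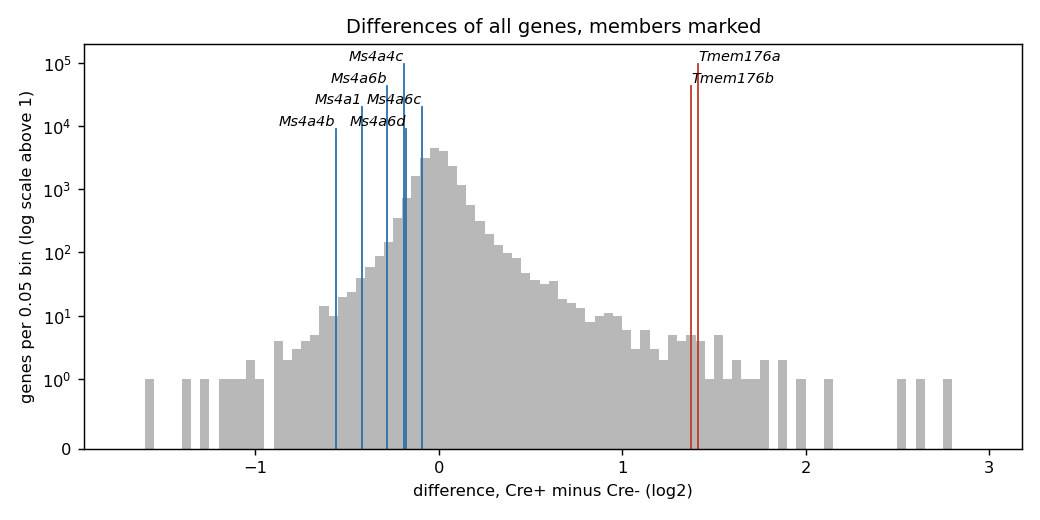
Histogram of the log2 difference, Cre+ minus Cre-, over 19938 genes in bins of 0.05, with counts on an axis that is logarithmic above 1; lines mark the 8 genes. The Tmem176 pair lies in the right tail at 1.41 and 1.38, Ms4a4b lies furthest left of the 8 at -0.56, and Ms4a6c lies inside the bulk at -0.09.

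The other genes of the family were compared next. Test results of single genes are given only for genes outside the 8. The tests themselves ran over all probe sets, with those of the 8 among them. At an adjusted p of 0.05 limma called 0 of the 35556 probe sets, or 0%, while 2356 had an unadjusted p under 0.05. A second test, limited to the 21789 probe sets with 1 gene symbol, called 266, or 1.22%. In neither test was any of the 13 other MS4A genes called, and 0 of them had an unadjusted p under 0.05 in the first. Their differences ranged from -0.10 to 0.09 with a median of -0.01, and 9 of the 13 had lower means. The group means of 8 rest on values below the lower quartile on all 4 arrays.

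Of these genes, Ms4a4d, a paralogue of Ms4a4b, differed by -0.09 (SE 0.07), and Ms4a4a by 0.03 (SE 0.07). Ms4a7 differed by 0.09 (SE 0.07), Ms4a13 by -0.10 (SE 0.06), Ms4a10 by -0.10 (SE 0.15) and Ms4a3, known from myeloid progenitors, by -0.06 (SE 0.10). Ms4a2, the IgE receptor beta chain gene, differed by -0.0022 (SE 0.07) and Ms4a5 by -0.0034 (SE 0.06). Ms4a8a, Ms4a12 and Ms4a15 differed by 0.04, -0.02 and -0.01. Ms4a19 and Ms4a20, added after the values were seen, differed by -0.04 and 0.03.

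One other transcript in the cluster was called. AW112010, a long noncoding RNA gene annotated between Ms4a18 and Ms4a8a, was at 8.64 and 8.92 in Cre+ mice, against 9.53 and 9.72 in Cre- mice. Both Cre+ arrays lay below both Cre- arrays, with a difference of -0.84 (SE 0.13). It was chosen after its values were seen, and limma's test called it when limited to 1-symbol probe sets (adjusted p = 0.0142) but not over all of them (adjusted p = 0.267), and not among 1-symbol probe sets when the fit had no intensity trend (adjusted p = 0.0576). It was the 1 gene called among the measured genes of the cluster that are no members.

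The genes that flank the cluster and the pair were not called. Zp1, the prostaglandin D2 receptor gene Ptgdr2 and Ccdc86 on one side of the MS4A cluster differed by -0.10, -0.10 and -0.08. The oocyte protein genes Oosp2, Oosp1 and Oosp3 on its other side differed by 0.06, -0.03 and -0.03. Beside the Tmem176 pair, the lymphocyte GTPase genes Gimap3, Gimap5 and Gimap1 differed by -0.08, -0.22 and -0.08. On its other side Gm7932, the diamine oxidase gene Aoc1 and Doxl1 differed by -0.04, -0.08 and 0.15. The 6 measured neighbours of the pair thus lay between -0.22 and 0.15, against 1.38 and 1.41 for the pair itself.

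**Figure D4:**
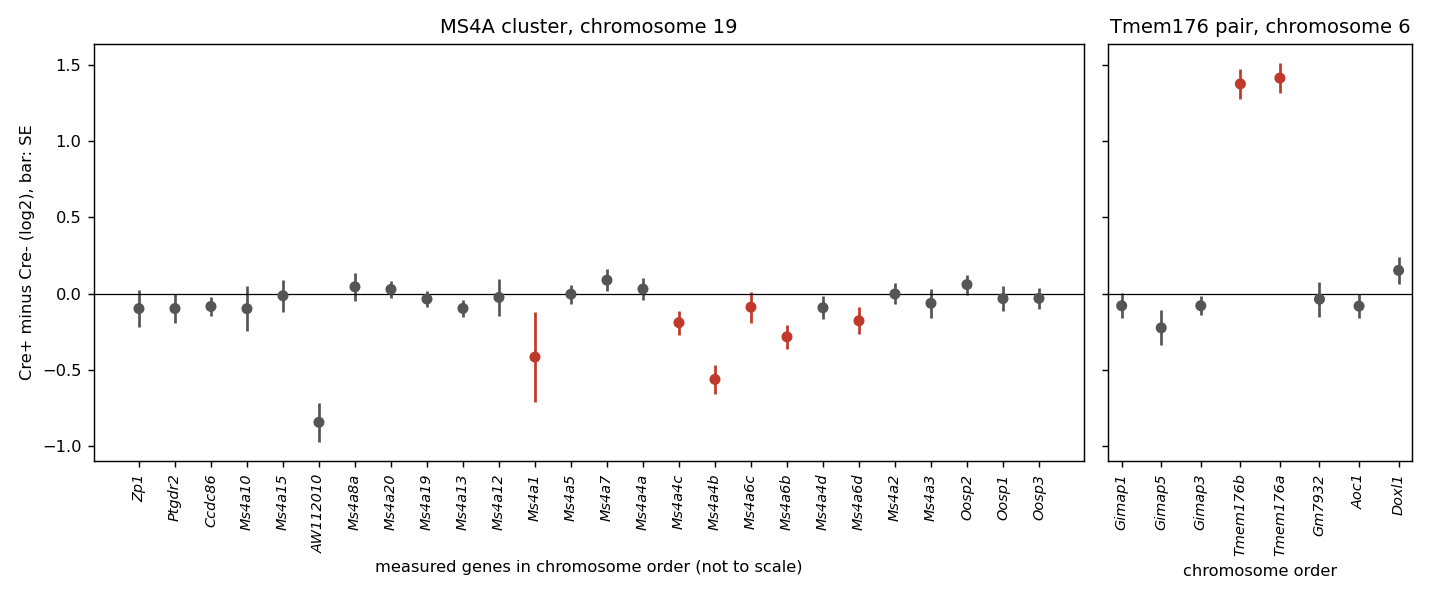
Log2 difference, Cre+ minus Cre-, with limma SE as bars, of the measured genes in chromosome order for the MS4A cluster (left) and the Tmem176 pair (right) with 3 measured genes on either side; the 8 genes are in red. The Tmem176 pair stands alone near 1.4 among its neighbours, and AW112010 at -0.84 is the lowest gene of the cluster.

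The genes most like the members over the 4 arrays were found by the Euclidean distance between profiles centred on each gene's mean. With 4 arrays many profiles are close, and the likeness is a description only. For both Tmem176 genes the nearest of all genes was Igll1, which encodes the lambda5 chain of the pre-B cell receptor, at distances of 0.039 from Tmem176a and 0.038 from Tmem176b. Igll1 was at 8.11 and 7.94 in Cre+ mice, against 6.68 and 6.62 in Cre- mice, a difference of 1.38 (SE 0.11). Tmem176a and Tmem176b came second for each other, at 0.053. Next for both came Gpx8, a peroxidase gene of the endoplasmic reticulum, with a difference of 1.31 (SE 0.10).

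For Ms4a4b the nearest profiles were those of Rab37, a vesicle GTPase gene (-0.54, SE 0.09), Card6 (-0.60, SE 0.09) and Slc37a3 (-0.53, SE 0.12). For Ms4a6b they were those of the microRNA gene Mir30c-1 (-0.27, SE 0.10), Tmem267 (-0.30, SE 0.09) and Dipk1b (-0.25, SE 0.09). Igll1, Gpx8, Rab37 and Card6 passed limma's test among probe sets with 1 gene symbol, while no gene passed it over all probe sets. These genes were picked for their likeness to members chosen on this contrast. Their group differences follow largely from that choice, so nothing is read from the calls. The calls of Rab37 and Card6 were lost without mouse 129 and without mouse 135.

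Genes of receptors and cell types in which the family is known were compared as lists, with each list's median set beside the -0.01 of all genes. The lists were chosen with earlier results of these data known, so their counts and calls are given as a description. Of all probe sets with 1 gene symbol, 1.22% were called. GITR, the partner of Ms4a4b encoded by Tnfrsf18, was at 8.59 and 8.36 in Cre+ mice, against 7.96 and 8.26 in Cre- mice. The difference of 0.37 (SE 0.15) did not pass either test. The IgE receptor genes Fcer1a and Fcer1g differed by 0.03 and 0.08.

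Ms4a4b is known to be expressed in mature T cells, so genes of mature thymocytes were set beside them. Of 11 measured genes 7 had lower means, the median was -0.11, and 0 passed either test. The integrin gene Itgb7 differed by -0.36 (SE 0.12), the egress receptor gene S1pr1 by -0.26 (SE 0.09) and Ets1 by 0.18 (SE 0.06). The mean log2 value of the list was 9.22 and 9.03 in Cre+ mice, against 9.16 and 9.25 in Cre- mice, so the groups overlapped. The part of mature cells in the lower Ms4a4b values was not tested.

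B cell markers bear on Ms4a1. Of 11 measured markers 9 had lower means, with a median of -0.18, and 0 passed either test. The list's mean was 6.08 and 6.07 in Cre+ mice, against 6.08 and 6.32 in Cre- mice, with mouse 137 the highest. The CD23 gene Fcer2a, chosen after its values were seen, was at 5.41 and 5.44 in Cre+ mice, against 5.40 and 6.12 in Cre- mice. Cd22, chosen likewise, was at 5.78 and 5.75 in Cre+ mice, against 5.86 and 6.20 in Cre- mice. Of the 11 markers 2 were highest in Cre+ mouse 129, 1 in Cre+ mouse 135, 1 in Cre- mouse 131 and 7 in Cre- mouse 137, and Cd79b was lowest in mouse 137, at 9.96. The markers named by rule were Fcmr (-0.31, SE 0.10), Cd79a (-0.35, SE 0.12) and Cd79b (0.25, SE 0.09). The summed linear values of the list lay between 1687 and 1848 in Cre+ mice and between 1621 and 1660 in Cre- mice, of which Cd79b at about 10 on the log2 scale made up the most. Cd79a was below the lower quartile on all 4 arrays. The part of B cells in the Ms4a1 values was not tested.

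Myeloid markers were set beside the Tmem176 pair and Ms4a6d. Of 13 measured macrophage and monocyte markers 11 had higher means, the median was 0.04, and 1 passed in the test among probe sets with 1 gene symbol. This was the lysozyme gene Lyz2, at 7.56 and 7.59 in Cre+ mice, against 6.79 and 6.29 in Cre- mice (1.04, SE 0.18, adjusted p = 0.0206 from limma, 0.0787 without an intensity trend). C1qc differed by 0.18 (SE 0.09) and Ccr2 by -0.10 (SE 0.07). The list's mean was 5.71 and 5.84 in Cre+ mice, against 5.68 and 5.63 in Cre- mice, and its summed linear values lay between 821 and 925 in Cre+ mice and between 743 and 756 in Cre- mice. Without Lyz2, left out after its values were seen, the mean was 5.56 and 5.70 in Cre+ mice, against 5.58 and 5.57 in Cre- mice, and the sums were 633 and 732 in Cre+ mice, against 646 and 664 in Cre- mice. The groups thus overlapped in both measures without Lyz2 and in neither with it. Of the 12 markers left, 10 had higher means in Cre+ mice. Of all 13 markers 2 were highest in Cre+ mouse 129, 9 in Cre+ mouse 135, 2 in Cre- mouse 131 and 0 in Cre- mouse 137. The macrophage gene Adgre1 was between 4.76 and 4.87 on the 4 arrays, below the lower quartile on each.

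Dendritic cell markers were compared for the same reason. Of 12 measured markers 9 had lower means, with a median of -0.02, and 0 passed either test. The class II gene H2-Aa was at 6.51 and 6.67 in Cre+ mice, against 6.59 and 7.73 in Cre- mice. Cd74, the class II invariant chain gene, was at 7.02 and 7.45 in Cre+ mice, against 7.14 and 8.28 in Cre- mice. Both were highest in mouse 137. Of the 12 markers 5 were highest in that mouse. The class II gene H2-Ab1, added after its values were seen, was highest in Cre+ mouse 135. It was at 8.42 and 9.07 in Cre+ mice, against 8.31 and 8.73 in Cre- mice (0.22, SE 0.26). The class II gene H2-Eb1, added likewise, differed by -0.02 (SE 0.11). H2-Aa and Cd74 differed by -0.57 (SE 0.38) and -0.47 (SE 0.40), with differences of 0.0052 and 0.099 without mouse 137, and the integrin gene Itgax by -0.09 (SE 0.08). The list's mean was 6.40 and 6.49 in Cre+ mice, against 6.42 and 6.62 in Cre- mice, and its summed linear values were 1269 and 1508 in Cre+ mice and 1272 and 1637 in Cre- mice. The part of myeloid cells in the higher Tmem176 values was not tested.

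Genes of γδ T cells, another thymic lineage that the sort could hold, were set beside the pair as well. Of 11 measured genes 8 had lower means, with a median of -0.03, and 2 passed, both lower, in the test among probe sets with 1 gene symbol. The kinase gene Blk was at 7.41 and 7.39 in Cre+ mice, against 7.90 and 7.91 in Cre- mice (-0.51, SE 0.09, adjusted p = 0.0463 from limma). 5830411N06Rik, a scavenger receptor family gene of γδ T cells, was at 7.43 and 7.28 in Cre+ mice, against 7.98 and 8.44 in Cre- mice (-0.86, SE 0.18, adjusted p = 0.0422 from limma). Both calls were lost without mouse 129 and without mouse 135, and that of 5830411N06Rik also in the limma fit without an intensity trend (adjusted p = 0.125). Il17f differed by -0.30 (SE 0.10). The list's mean was 6.52 and 6.46 in Cre+ mice, against 6.63 and 6.68 in Cre- mice, lower in both Cre+ mice without overlap.

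Interferon response genes had the largest median difference of the 11 lists. This list too was chosen with earlier results of these data known, so nothing is read from its counts. Of 19 measured genes 18 had higher means, with a median of 0.67, and 3 passed among probe sets with 1 gene symbol. These were the RNA sensor gene Ifih1 (1.14, SE 0.19), Oas1a (0.87, SE 0.15) and Irgm1 (0.61, SE 0.12), and the calls of Oas1a and Irgm1 were lost without mouse 129. All 3 were lost in the limma fit without an intensity trend (adjusted p = 0.0833, 0.0739 and 0.134). The list's mean was 9.06 and 8.34 in Cre+ mice, against 8.004 and 7.887 in Cre- mice. Mouse 129 thus stood 0.72 above mouse 135, and the Tmem176 pair stood 0.17 and 0.21 apart in the same mice and Ms4a4b 0.13. The part of the interferon response in the values of the 8 genes was not tested.

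**Figure D5:**
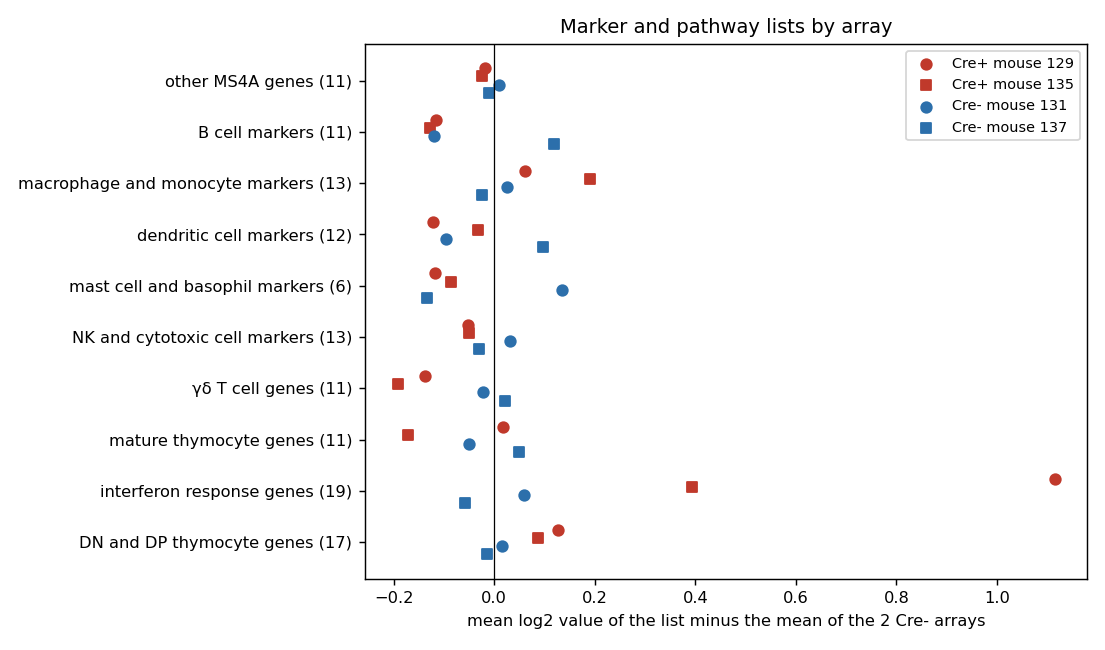
Mean log2 value of each list, other than the receptor partners, on each array, minus the mean of the 2 Cre- arrays, with the number of measured genes in brackets; Cre+ mice are red and Cre- mice blue. The interferon list is highest in mouse 129, the B cell and dendritic cell lists are highest in Cre- mouse 137, and the γδ T cell list is lower in both Cre+ mice.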

How the data were processed

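Total RNA of sorted DN4 cells from 4 mice was labelled in a 2-cycle assay and hybridised to Affymetrix mouse gene arrays, per the labels' protocols. Several amounts of input RNA are listed there without saying which applies to which array, so input as a batch could not be tested. The authors deposited log2 expression values; per the submitters' processing notes RMA was used, and the scale was read from the values themselves. Its version, any filter and a build were not found in the labels or headers. Groups came from the Cre status in the titles, and mouse numbers pair no animals across groups. Genes were named through the platform annotation, by probe sets with exactly 1 symbol, with the highest mean where a gene had several.

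In R 4.3.3, limma 3.58.1 fitted all 35556 probe sets (lmFit, then trended eBayes), adjusted by Benjamini-Hochberg at a threshold of 0.05, and the 21789 with 1 symbol were fitted again alone. Every SE of a difference is from the fit over all probe sets, also where the adjusted p beside it is from the 1-symbol fit. Of 138 list genes 126 were measured, in 11 lists. Text names the 8 members, the other MS4A genes, the 3 genes of each list with the smallest p and any called, 3 profile neighbours and 3 flanking genes. Members and lists were chosen with earlier results of these data known. Promoters are from RefSeq, GRCm38.p6. The fit was tested on simulated data. Alternatives were centring, 2 normalizations, filters on dim probe sets, other variance models, array weights and leaving out each mouse. Averaging all probe sets of a gene gave no other value, since each member has 1.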

Additional observations from a re-analysis of the deposited data

How the results depend on the processing

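The differences of the 8 genes kept their sign under centring, 2 further normalizations and leaving out each mouse, which cannot turn the sign where groups do not overlap. With 2 arrays a group, array weights and filters cannot move them. Across the single-mouse omissions, Ms4a4b ranged from -0.63 to -0.50, Ms4a6b from -0.36 to -0.21, Ms4a4c from -0.26 to -0.12, Ms4a6d from -0.22 to -0.14, Ms4a6c from -0.14 to -0.03, Ms4a1 from -0.83 to -0.01, Tmem176a from 1.33 to 1.497 and Tmem176b from 1.27 to 1.48. The filter at the 25th percentile removed Ms4a4c and Ms4a1, and that at the median left Ms4a6b and the Tmem176 pair. Over all probe sets limma called 10 after centring, 25 above the 25th percentile of means and 80 above the median, against 0. Without any 1 mouse it called 0. Among probe sets with 1 gene symbol it called 130 without an intensity trend and 138 to 480 without 1 mouse (138 without mouse 129, 480 without mouse 131), against 266. Of the list genes it called 9 to 24 without 1 mouse (24 without mouse 135, 21 without mouse 131), against 12. Of the 17 other named genes called there, 11 were not called without an intensity trend (adjusted p 0.0576 to 0.403): AW112010, Lyz2, 5830411N06Rik, Ifih1, Oas1a, Irgm1, Cd3d, Cd3e, Cd3g, Rag1 and Dntt. Each omission of a mouse leaves 1 array in a group, so these fits hold no spread within that group. Without mouse 131 the differences were -1.04 for Cd74, -1.14 for H2-Aa, -0.49 for Cd79a and -0.58 for Slc37a3. Without mouse 137 the difference of Cpa3 was -1.58. Some uncalled genes changed sign. Ms4a2 was at 0.0076, 0.017 and 0.021 and Ms4a5 at 0.0065, 0.018 and 0.020 after centring, quantile normalization and cyclic loess. Without 1 mouse, Cd74 ranged from -1.04 to 0.099, Fcer1g from -0.048 to 0.21, Gm7932 from -0.15 to 0.075, H2-Aa from -1.14 to 0.0052, Ms4a10 from -0.28 to 0.083, Ms4a12 from -0.14 to 0.090, Ms4a15 from -0.092 to 0.064, Ms4a2 from -0.050 to 0.046, Ms4a4a from -0.011 to 0.071, Ms4a5 from -0.040 to 0.033, Oosp1 from -0.11 to 0.049, Oosp3 from -0.081 to 0.020 and Zp1 from -0.20 to 0.0044. The cause was not tested.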

Other observations

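Lists of other thymic cells and stages gave further values. They too were chosen with earlier results of these data known, so their counts and calls are given as a description. Of 17 measured genes of DN and DP thymocytes 12 had higher means in Cre+ cells and 5 had lower means, with a median of 0.21. Among the lower ones were Cd8a (-0.61, SE 0.21), Cd44 (-0.42, SE 0.10) and Cd8b1 (-0.27, SE 0.08), added outside the rule for naming genes. Their groups did not overlap, and they passed neither test. Cd4 (0.54, SE 0.11) and Ptcra (0.33, SE 0.07), added likewise, were higher without overlap and also passed neither test. The CD3 chain genes Cd3d (0.66, SE 0.08), Cd3g (0.37, SE 0.05) and Cd3e (0.25, SE 0.04), the recombinase gene Rag1 (0.38, SE 0.08) and the terminal transferase gene Dntt (0.21, SE 0.03) were called higher by limma among probe sets with 1 gene symbol. The calls of Rag1 and Dntt were lost without mouse 129 and without mouse 137. In the limma fit without an intensity trend all 5 calls were lost (adjusted p between 0.0588 for Cd3d and 0.403 for Dntt).

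Of 13 natural killer and cytotoxic cell markers 6 had lower means, with a median of 0.00. Nkg7, a cytotoxic granule gene, was at 8.88 and 8.91 in Cre+ mice, against 10.03 and 9.85 in Cre- mice (-1.04, SE 0.09). Limma called Nkg7 lower when limited to 1-symbol probe sets (adjusted p = 0.00114) but not over all of them (adjusted p = 0.0791). Gzma differed by -0.19 (SE 0.03) and Tbx21 by 0.36 (SE 0.13). Of 6 mast cell and basophil markers 4 had higher means and 0 were called, with a median of 0.02. Cpa3 was at 7.49 and 7.67 in Cre+ mice, against 9.16 in mouse 131 and 7.66 in mouse 137, the Cre- mice. Its difference was -1.58 without mouse 137, where mouse 131 was the only Cre- array left. Hdc differed by 0.18 (SE 0.09).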
